A study of Mus musculus with 8 samples.

Results

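Elastic fibres are the part of the extracellular matrix that lets a tissue recoil after stretch. They consist of a core of cross-linked elastin laid down on a scaffold of microfibrils, which are polymers of fibrillin decorated with microfibril-associated glycoproteins. Latent TGF-beta binding proteins are relatives of the fibrillins that attach to the same microfibrils, and some of them hold the growth factor TGF-beta in the matrix in an inactive form. In skeletal muscle this material lies in the connective tissue around the fibres, in blood vessel walls and towards the tendon.

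The 10 genes described here are elastin (Eln), the fibrillins Fbn1 and Fbn2, the latent TGF-beta binding proteins Ltbp1, Ltbp2, Ltbp3 and Ltbp4, and the microfibril-associated proteins Mfap2, Mfap4 and Mfap5. They were chosen by gene symbol from 22880 gene identifiers, and each matched a single Ensembl identifier. The measurements are RNA-seq of the soleus, a calf muscle that works in posture, of 4 control males (Dnm2 +/+) and 4 heterozygous point-mutant males (Dnm2 +/K562E), all 2 months old and on the C57BL/6 background. In Dnm2 +/K562E mice one of the 2 alleles of dynamin 2, a GTPase that cuts vesicles from membranes, carries the exchange of lysine K562 for glutamate in every cell, and a LoxP site remained in a neighbouring intron of that allele. The values are the numbers of reads that the authors counted per gene and mouse, with totals from 33407430 to 48832814 per mouse. Levels are given as normalized CPM (read counts scaled to library size and TMM factors, which even out libraries by genes that differ little between them) and, where genes are compared with each other, as normalized CPM per kb of exon.

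Of the 10 genes, 7 were higher in Dnm2 +/K562E soleus and none was lower. A gene was called when its adjusted p was under 0.05 and its log2 fold change reached 0.58 either way (edgeR quasi-likelihood F-test, adjusted by Benjamini-Hochberg over 14001 genes). Over all tested genes 12.9% were called higher and 7.85% lower by the same rule. In whole muscle a change in the number of cells that make these RNAs cannot be told apart from a change in RNA per cell. Ltbp1 and Ltbp4 rose by less than the fold threshold, and Eln, the core protein gene, had a lower mean in the mutant mice but did not pass the test. The median log2 fold change was 1.11 over the 10 genes and 0.01 over all tested genes. In 9 of the 10 genes every Dnm2 +/K562E mouse lay above every control, which held for 20.6% of all tested genes, and for 20.5% in the lower direction. Total Dnm2 itself did not pass the test (log2 fold change 0.15, adjusted p = 0.0909, same test), and the counts add the reads of both alleles.

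**Figure D1:**
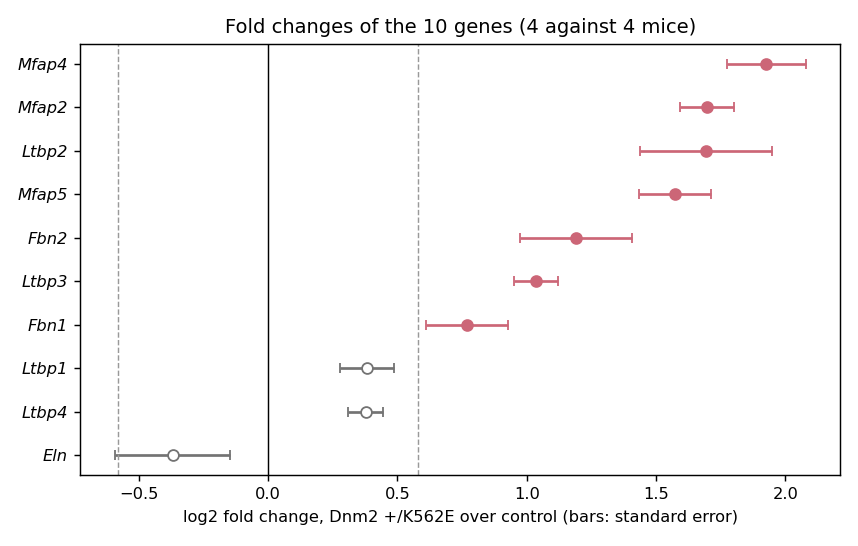
log2 fold change of each of the 10 genes in Dnm2 +/K562E over control soleus, with its standard error (4 mice per group). Filled red points passed both thresholds, open grey points did not, and dashed lines mark a log2 fold change of 0.58 either way. Mfap4 (1.93) and Mfap2 (1.70) lie at the top and Eln (-0.37) is the only point below 0.

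RefSeq promoter windows (build GRCm38.p6) were found for 6 of the 10 genes, and those of Fbn1 and Ltbp2 lay wholly within annotated exons. The stretches before 5 starts are shown, without bases of annotated exons, for 2 genes called higher (Ltbp3 and Mfap2) and 2 that rose by less than the fold threshold (Ltbp1, with an outer and an inner start, and Ltbp4), so that genes that rose by different amounts can be set side by side. The outer Ltbp1 window is chr17:75005279-75005528, the inner one chr17:75178531-75178780, the Ltbp3 window chr19:5740650-5740899 and the Mfap2 window chr4:141010174-141010417, all on the plus strand, and the Ltbp4 window is chr7:27337693-27337862 on the minus strand. All are written 5′ to 3′, and capitals mark matches on either strand to the 5 motifs named after them.
Ltbp1 outer: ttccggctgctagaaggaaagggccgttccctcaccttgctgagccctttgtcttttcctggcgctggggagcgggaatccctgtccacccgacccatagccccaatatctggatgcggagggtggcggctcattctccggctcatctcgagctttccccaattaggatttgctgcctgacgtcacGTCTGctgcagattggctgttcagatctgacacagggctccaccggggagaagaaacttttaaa
Ltbp1 inner: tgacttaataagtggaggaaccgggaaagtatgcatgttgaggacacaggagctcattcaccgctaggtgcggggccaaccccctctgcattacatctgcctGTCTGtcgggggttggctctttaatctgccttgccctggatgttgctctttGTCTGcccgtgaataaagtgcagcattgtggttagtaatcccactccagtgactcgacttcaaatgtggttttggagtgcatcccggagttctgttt
Ltbp3: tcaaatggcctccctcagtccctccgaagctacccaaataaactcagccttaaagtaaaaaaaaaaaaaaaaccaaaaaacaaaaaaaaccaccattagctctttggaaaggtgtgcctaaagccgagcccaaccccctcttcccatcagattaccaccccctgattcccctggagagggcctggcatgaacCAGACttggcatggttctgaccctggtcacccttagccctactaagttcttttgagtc
Mfap2: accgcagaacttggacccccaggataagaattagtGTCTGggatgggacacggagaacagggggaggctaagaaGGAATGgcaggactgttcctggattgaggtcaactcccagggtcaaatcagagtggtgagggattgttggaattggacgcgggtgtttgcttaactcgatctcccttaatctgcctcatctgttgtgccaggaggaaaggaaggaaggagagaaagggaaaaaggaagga
Ltbp4: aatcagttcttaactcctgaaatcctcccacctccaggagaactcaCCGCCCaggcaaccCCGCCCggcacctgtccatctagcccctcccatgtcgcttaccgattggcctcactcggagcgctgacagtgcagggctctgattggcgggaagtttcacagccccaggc
The SMAD-binding motif CAGAC, read by the proteins that carry the TGF-beta signal, occurred in every window shown except that of Ltbp4. It occurred in 42.2% of 32851 windows of 250 bases in the whole RefSeq table. The shares for the whole table keep exon bases, whereas the stretch shown is only 170 bases long for Ltbp4 and 244 for Mfap2. A missing match in Ltbp4 is thus set beside longer windows. The TEAD motif GGAATG occurred only in Mfap2 among these windows, and in 12.6% of all. The GC box GGGCGG occurred only in Ltbp4 among the windows shown, at 2 places, and in 32.7% of all. The AP-1 motif TGANTCA (6.75% of all) and the TATA box TATAAA (12.4% of all) had no match in these 5 windows. Not shown are a second Mfap2 window, which held no CAGAC and 1 GC box, and 2 further Ltbp4 windows, which overlap each other and held no CAGAC and 5 and 7 GC boxes. A match is only a string of letters, and binding was not measured.

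The 3 microfibril-associated genes were all called higher, by 2.98-fold to 3.80-fold. Mfap4 encodes a secreted glycoprotein that binds microfibrils and elastin (chromosome 11, 61485431 to 61488900). Its normalized CPM was 37.5, 21.8, 32.7 and 38.4 in controls 1 to 4 and 138.4, 114.4, 118.8 and 123.8 in Dnm2 +/K562E mice 1 to 4. The lowest mutant mouse was far above the highest control, and the log2 fold change of 1.93 had a standard error of 0.15 (adjusted p = 4.57e-06). Mfap2 encodes MAGP-1, a small protein on fibrillin microfibrils (chromosome 4, 141010418 to 141015984). It had 4.98, 4.395, 4.39 and 4.83 CPM in controls and 17.3, 14.8, 14.6 and 13.6 CPM in mutant mice, again without overlap. Its spread between mice was small (SD 0.300 in controls and 1.57 in mutants), and its p-value of 6.18e-09 was the smallest of the 10 genes (log2 fold change 1.70, standard error 0.10, adjusted p = 1.20e-06). Mfap5 encodes the related MAGP-2 (chromosome 6, 122505845 to 122529290). Its level was 50.7, 48.9, 46.8 and 63.0 CPM in controls and 149.0, 180.4, 177.0 and 116.6 CPM in mutant mice. Mutant mouse 4 was the lowest of its group but still above all controls, and the log2 fold change of 1.57 had a standard error of 0.14 (adjusted p = 1.05e-05).

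The fibrillins form the microfibril itself. Fbn1, the main fibrillin of adult tissue (chromosome 2, 125300594 to 125507993), had 176.6, 228.8, 266.9 and 309.1 CPM in controls and 478.5, 429.1, 432.7 and 333.8 CPM in Dnm2 +/K562E mice. The groups came close to each other at control 4 and mutant 4 without overlapping, with a log2 fold change of 0.77 and a standard error of 0.16 (adjusted p = 0.00258). Fbn2, the fibrillin best known from development (chromosome 18, 58008623 to 58210487), was much scarcer, at 4.17, 3.59, 4.95 and 6.68 CPM in controls and 14.99, 8.76, 9.28 and 11.3 CPM in mutants. Mutant 1 and control 4 were the highest of their groups, and the log2 fold change of 1.19 had a standard error of 0.22 (adjusted p = 0.00117). Fbn1 shares 19.9% of its 31-base stretches with transcripts of other gene models, among which Gm9913 on the other strand overlaps 2442 bases of its exons. Gm9913 had between 1 and 20 counts per mouse, against 5929 to 18462 for Fbn1.

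The latent TGF-beta binding genes rose to different degrees. Ltbp2, which does not hold latent TGF-beta but binds fibrillin microfibrils (chromosome 12, 84783212 to 84876532), had 8.37, 7.51, 9.16 and 13.5 CPM in controls and 48.0, 25.7, 20.8 and 30.0 CPM in mutant mice. Mutant 1 stood well above the other mutants and control 4 above the other controls, with a log2 fold change of 1.69 and a standard error of 0.26 (adjusted p = 3.52e-04), or 1.40 without mutant 1. Ltbp3, which binds latent TGF-beta (chromosome 19, 5740904 to 5758532), was tighter, with 69.1, 77.9, 78.7 and 89.8 CPM in controls and 174.8, 157.6, 146.3 and 167.7 CPM in mutants. It was about doubled in every mutant mouse relative to the control mean of 78.9 CPM (log2 fold change 1.03, standard error 0.09, adjusted p = 6.22e-06). Ltbp1, another carrier of latent TGF-beta (chromosome 17, 75005568 to 75392512), had 30.3, 36.7, 39.2 and 43.7 CPM in controls and 54.3, 47.3, 48.4 and 45.4 CPM in mutants. Ltbp4, which also takes part in elastic fibre assembly through fibulin-5 (chromosome 7, 27305136 to 27337692), had 351.8, 393.3, 425.6 and 413.0 CPM in controls and 518.8, 531.6, 505.7 and 501.0 CPM in mutants. Both rose without overlap between the groups but by little, with log2 fold changes of 0.38 for Ltbp1 (standard error 0.10, adjusted p = 0.0129) and 0.38 for Ltbp4 (standard error 0.07, adjusted p = 0.00111). An adjusted p under 0.05 with a higher mean was reached by 22.2% of all tested genes, and with a lower mean by 21.7%. Scaling by library size alone lifted both past the fold threshold (0.59 each), but it also moved the median of all genes from 0.01 to 0.22.

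Elastin behaved differently. Eln lies on chromosome 5 (134702593 to 134747323, minus strand), and its product is the rubber-like core of the fibre. Its level was 40.0, 92.9, 86.3 and 75.2 CPM in controls 1 to 4 and 65.3, 50.4, 46.0 and 66.3 CPM in Dnm2 +/K562E mice 1 to 4. Controls 2 to 4 were above all mutant mice, whereas control 1 was below all of them. The log2 fold change of -0.37 had a standard error of 0.22 (adjusted p = 0.205), and the mean was 73.6 ± 23.6 CPM in controls against 57.0 ± 10.3 CPM in mutants (SD, n = 4 each). The result turned on control 1, since without that mouse the log2 fold change was -0.58 with an adjusted p of 0.003658, which passes both thresholds. Without any other single mouse it lay between -0.45 and -0.24 and did not pass. Its log2 fold change was below 0 under every alternative listed with the methods.

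**Figure D2:**
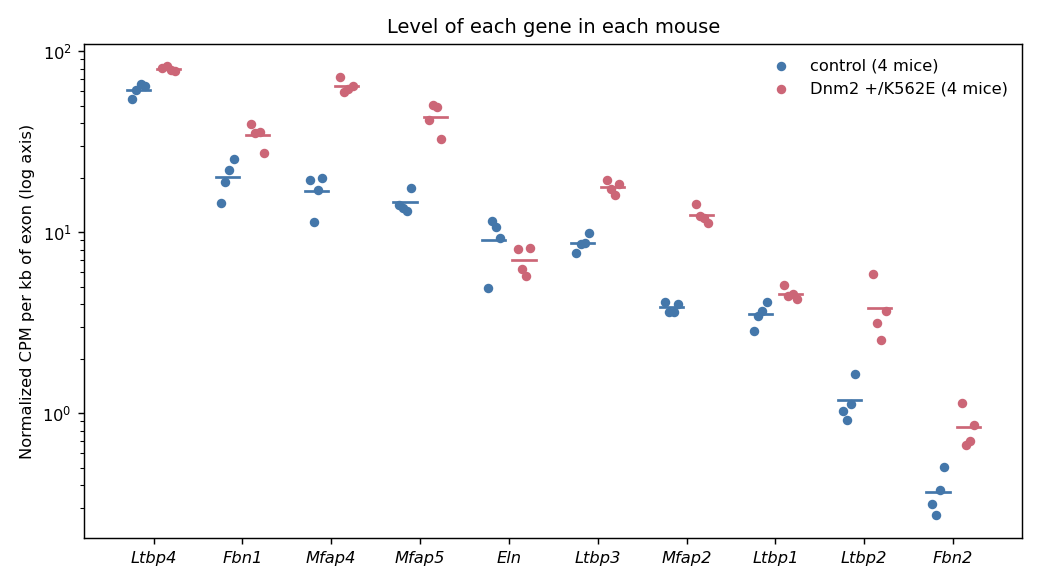
Normalized CPM per kb of exon (log axis) of each gene in each of the 4 control (blue) and 4 Dnm2 +/K562E (red) mice, with a line at the group mean, in the order of the control means. The red points lie above the blue ones in 9 genes, and in Eln the groups overlap, with control 1 (4.94) as the lowest point.

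Per kb of exon, Ltbp4 had the highest level in both groups, with 61.3 ± 4.99 in controls against 79.6 ± 2.14 in mutants (SD, n = 4 each), and Fbn2 the lowest, at 0.367 ± 0.102 and 0.839 ± 0.214 (SD, n = 4 each). In controls Fbn1 (20.2), Mfap4 (16.96), Mfap5 (14.6), Eln (9.09), Ltbp3 (8.70), Mfap2 (3.84), Ltbp1 (3.51) and Ltbp2 (1.18) followed Ltbp4. The ranges of the 4 mice overlapped between Fbn1 and Mfap4, Mfap4 and Mfap5, Eln and Ltbp3, and Mfap2 and Ltbp1, so these neighbours were not ordered beyond their spread. In mutants the order below Ltbp4 was Mfap4 (64.5), Mfap5 (43.4), Fbn1 (34.5), Ltbp3 (17.8), Mfap2 (12.4), Eln (7.04), Ltbp1 (4.57) and Ltbp2 (3.80), and here only Mfap5 with Fbn1 and Ltbp1 with Ltbp2 overlapped. Eln thus moved from rank 5 to rank 7 and Mfap4 from rank 3 to rank 2. The exon length of a gene joins the exons of all its annotated transcripts, coding or not. The order between genes depends on these lengths, and so do the shares of the sum per kb.

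**Figure D3:**
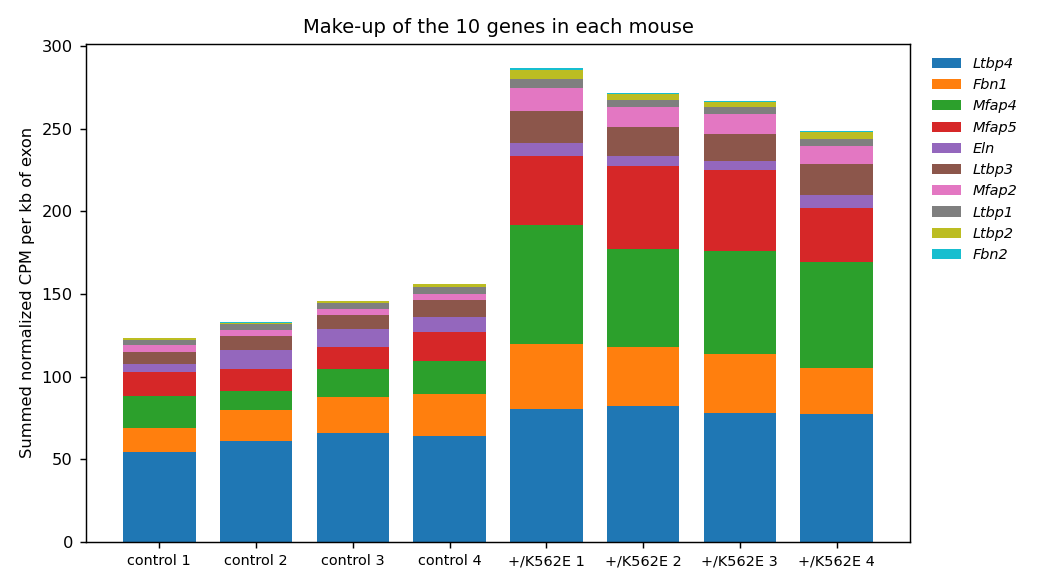
Summed normalized CPM per kb of exon of the 10 genes in each mouse, stacked by gene from 0. Mfap4 (green) and Mfap5 (red) take up a larger part of each Dnm2 +/K562E column than of any control column, while Eln (purple) takes up a smaller part on average (6.46% in controls and 2.63% in mutants).

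The make-up of this set of genes differed between the groups in the same way. Of the sum per kb over the 10 genes, Ltbp4 made up 44.0% ± 2.17 in controls against 29.7% ± 1.37 in mutants (SD, n = 4 each). Mfap4 made up 12.2% ± 3.00 in controls and 24.0% ± 1.81 in mutants (SD, n = 4 each), and Eln 6.46% ± 1.98 and 2.63% ± 0.528 (SD, n = 4 each). The share of Fbn1 was similar in size, at 14.3% ± 1.91 and 12.8% ± 1.19 (SD, n = 4 each). A share falls when other members rise, so these values describe proportions and not levels.

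Whether pairs of related members changed unequally was tested on their log2 ratio within each mouse, which does not depend on how libraries are scaled (5 pairs, exact two-sided permutation tests, smallest possible p = 0.0286). The ratio of Eln to Fbn1, the core to the scaffold, was lower in Dnm2 +/K562E mice. In raw counts it was 0.226, 0.406, 0.323 and 0.243 in controls and 0.137, 0.117, 0.106 and 0.199 in mutants, with every mutant mouse below every control. The difference in mean log2 ratio was -1.10 (exact permutation p = 0.0286, adjusted p = 0.0476 over the 5 pairs), whereas Eln alone did not pass. The ratio of Ltbp2 to Ltbp4 was higher in all 4 mutants, with a difference of 1.27, and that of Ltbp1 to Ltbp3 was lower in all 4, with a difference of -0.65 (exact permutation p = 0.0286 and adjusted p = 0.0476 for each). All 3 pairs tied at the smallest possible p, so the adjusted p of each depends on the other pairs tested with it. The pairs were formed from genes chosen with earlier results of these data known, so their p-values are not independent of that choice. Ltbp1 and Ltbp4, each with a log2 fold change of 0.38, were not tested as a pair. Ltbp1 had 0.438 to 0.498 reads per read of Ltbp3 in controls and 0.271 to 0.331 in mutants, so these 2 carriers of latent TGF-beta shifted relative to each other. With 7 mice all 3 differences kept their direction, but their adjusted exact p rose to between 0.0714 and 0.0952 without any single control mouse or without mutant mouse 1, and stayed at 0.0476 without mutant mouse 2, 3 or 4. For Mfap5 to Mfap2 the difference was -0.12 (mean log2 ratio 3.47 ± 0.155 in controls and 3.35 ± 0.290 in mutants, SD, n = 4 each, exact permutation p = 0.429), and for Fbn2 to Fbn1 it was 0.40 (-5.65 ± 0.256 and -5.25 ± 0.372, SD, n = 4 each, exact permutation p = 0.200). An unequal change was not detected in these last pairs, which does not show that they changed alike.

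**Figure D4:**
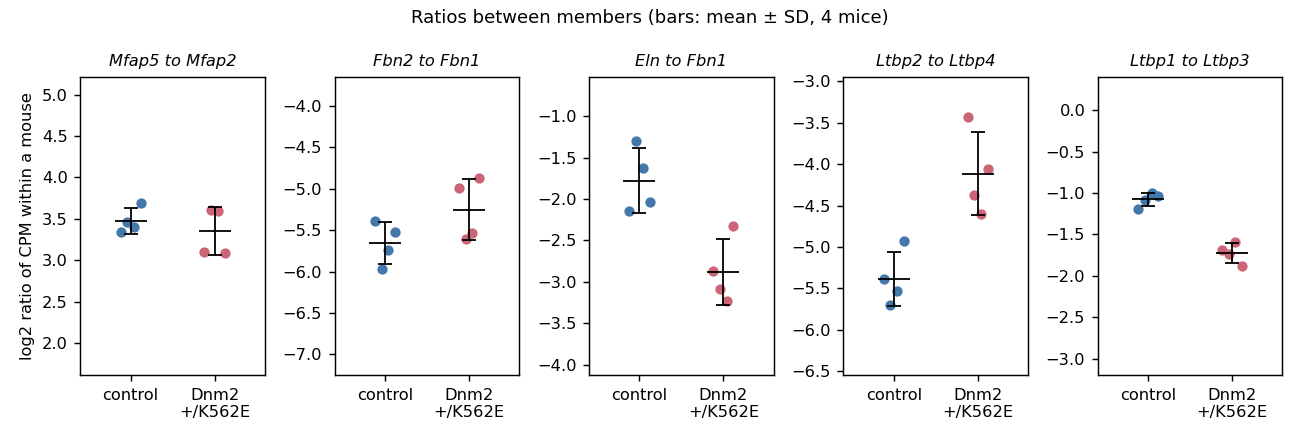
log2 ratio of normalized CPM between the 2 genes of each pair within each mouse, for 4 control (blue) and 4 Dnm2 +/K562E (red) mice, with mean and SD in black. All panels span the same height in log2 units. The groups do not overlap for Eln to Fbn1 (mean -1.78 and -2.88), Ltbp2 to Ltbp4 and Ltbp1 to Ltbp3, and overlap for the others.

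Genes whose profile over the 8 mice was most like that of a member were found by the root mean square difference of log2 CPM after subtraction of each gene's mean. For Eln these were Abtb2 (0.0847), the cyclin gene Ccnd1 (0.0964) and Rp1 (0.109), against a median of 0.472 over all tested genes. All 3 were, like Eln, lowest in control 1, for example 21.5 CPM for Ccnd1 against 42.7 to 48.9 CPM in the other controls, which follows from their choice by likeness to Eln. For Fbn1 they were the hemicentin gene Hmcn2 (0.101), the fibril-associated collagen gene Col14a1 (0.117) and Medag (0.125), against a median of 0.522. For Ltbp2 they were the hyaluronan receptor gene Cd44 (0.181), Col12a1 (0.218) and Ncf1 (0.219), against a median of 0.930. Cd44, Col12a1 and Ncf1 were, like Ltbp2, highest in mutant mouse 1, at 67.1, 276.5 and 16.3 CPM. Their shared peak likewise follows from their choice by likeness to Ltbp2.

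The other genes of the pathway were taken from 8 lists. These were written with earlier results of these data known, so the counts are not independent of that choice. In the lists 60 distinct genes were tested and 30 were called higher and 2 lower, with a median log2 fold change of 0.60. The shares over all tested genes were 12.9% called higher and 7.85% lower. The enzymes that cross-link elastin and collagen rose throughout, with all 5 lysyl oxidase genes called higher. Loxl2 went from 58.8 ± 7.52 to 189.7 ± 14.2 CPM (SD, n = 4 each, log2 fold change 1.69, adjusted p = 6.94e-07), and the log2 fold changes ran from 0.86 for Loxl3 to 1.86 for Loxl4, with Loxl1, which acts on elastin, at 1.20. Of 10 genes listed under elastic fibre assembly, 5 were higher (8 without control 4) and none lower. The part that each of them plays in assembly was not tested here. The largest change in this list was in the fibulin gene Fbln7, from 4.08 ± 0.747 to 25.5 ± 5.69 CPM (SD, n = 4 each, log2 fold change 2.64, adjusted p = 1.83e-06). It was followed in p-value by Fbln2 (0.65) and Emilin1 (0.85), whereas Efemp1 had -0.12. Fbln5 and Efemp2, which bring elastin to the microfibril and to the cross-linking enzymes and were picked with their values known, had log2 fold changes of 0.36 (adjusted p = 0.00365) and 0.78 (adjusted p = 1.34e-04). Among 8 ADAMTS and ADAMTS-like genes whose products bind microfibrils, 1 was called higher and 1 lower, which is near the shares over all tested genes. These were Adamtsl3 (0.61, a call lost without control 2 or without mutant 1) and Adamtsl4 (-0.82).

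Enzymes able to degrade elastin or microfibrils were also mostly higher, with 6 of 7 tested genes called higher and 1 lower. Over all tested genes the shares were 12.9% and 7.85%. The gelatinase gene Mmp2 rose from 125.2 ± 26.7 to 340.2 ± 27.7 CPM (SD, n = 4 each, log2 fold change 1.44, adjusted p = 1.05e-05), and the cathepsin genes Ctsl and Ctsk had log2 fold changes of 0.68 and 1.06. The macrophage elastase gene Mmp12 had the highest value (3.28) but rested on 0 to 10 counts per control mouse. Mmp9 was called lower (-1.67), at 0.983 to 3.24 CPM in controls and 0.395 to 0.706 CPM in mutants. The direction thus differed between the 2 gelatinases Mmp2 and Mmp9.

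On the side of TGF-beta, the ligand genes Tgfb2 (15.3 ± 3.37 to 37.0 ± 1.88 CPM, SD, n = 4 each, log2 fold change 1.28, adjusted p = 2.65e-05) and Tgfb3 (0.62, adjusted p = 5.68e-05) were called higher, and Tgfb1 rose by less than the fold threshold (0.50, adjusted p = 0.00499). Without control 3 only 1 of the 3 ligand genes was called. Of 11 genes that anchor or activate latent TGF-beta, 3 were called higher, namely the procollagen protease Bmp1 (0.84), thrombospondin Thbs1 (1.54) and the integrin gene Itgb8 (1.05), and none lower, with Lrrc32 lowest at -0.13. This count was 5 without control 4 or without mutant 4. For this and the other counts here, the shares over all tested genes were 12.9% called higher and 7.85% lower. Among 8 receptors and Smads, Tgfbr2 (0.60) and Tgfbr3 (1.00) were called higher, and Smad3, a carrier of the signal to the nucleus, had the lowest value (-0.52, adjusted p = 6.08e-04), short of the fold threshold. The higher count fell to 1 without control 1, control 2 or mutant 1, and 1 gene was called lower without control 1 or control 4. Of 9 genes known to respond to TGF-beta, 6 were called higher, led by periostin Postn (2.15), Fn1 (1.21) and Tgfbi (1.21), whereas the feedback inhibitor gene Smad7 did not differ detectably, at 9.78 ± 1.08 and 9.80 ± 2.52 CPM (SD, n = 4 each, adjusted p = 0.998).

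**Figure D5:**
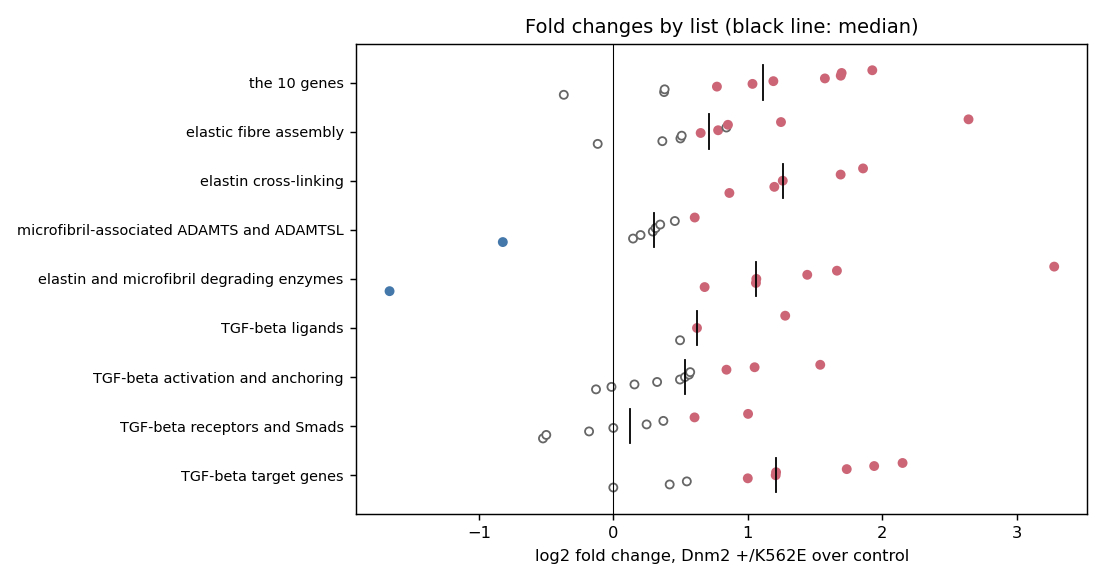
log2 fold change of each tested gene, Dnm2 +/K562E over control (4 mice per group), for the 10 genes and 8 lists of related genes, with the list median as a black line. Red points were called higher, blue points lower, and open points did not pass both thresholds. All 5 points of elastin cross-linking are red (median 1.26), while the receptors and Smads centre on 0.12.

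The soleus contains several cell types, some of which make these proteins. For the counts of called markers, the shares over all tested genes were 12.9% higher and 7.85% lower. At an adjusted p under 0.05 alone they were 22.2% and 21.7%. Of 6 markers of fibroblasts 5 were called higher. Ly6a went the other way, by less than the fold threshold (log2 fold change -0.19, adjusted p = 0.03325, edgeR quasi-likelihood F-test). The summed level of the 6 was 1072 to 1486 CPM in controls and 1910 to 2434 CPM in mutants. Markers of tendon cells were higher too (6 of 6), with 550.0 to 1068 CPM in controls and 3084 to 3950 CPM in mutants. Much of this sum was Thbs4, with a mean of 366.2 CPM in controls and 2361 CPM in mutants (log2 fold change 2.69). The median log2 fold change of the 6 tendon markers was 1.145. Macrophage markers were also higher (5 of 5), with 48.6 to 89.2 CPM in controls and 107 to 182 CPM in mutants. Markers of smooth muscle, which makes elastin in vessel walls, went the other way, with 4 of 5 called lower and 515 to 660 CPM in controls against 348 to 379 CPM in mutants. Endothelial markers had 1 of 5 called lower, and all 5 were lower at an adjusted p under 0.05. Their sum was 940 to 1009 CPM in controls and 675 to 760 CPM in mutants. Of 5 pericyte markers none passed both thresholds, although 3 were lower and 1 higher at an adjusted p under 0.05. The pericyte sum was 1499 to 1680 CPM in controls and 1147 to 1374 CPM in mutants. Markers of Schwann cells, adipocytes and cartilage had no called gene. Of the 4 cartilage markers only 2, Col2a1 and Acan, were tested. Matn1 had no reads in any mouse, and Col9a1 had 1 to 38 counts in controls and 0 to 4 in mutants. Col2a1 had 84 to 163 counts per mouse. The summed level of the 2 tested markers was 2.91 to 5.18 CPM in controls and 3.54 to 4.37 CPM in mutants. Those of muscle fibres, led by Acta1, were abundant in all 8 mice but lower in the mutants, with 59238 to 66292 CPM in controls and 40234 to 44947 CPM in mutants. Of these 6 genes 2 were called lower, and 5 were lower at an adjusted p under 0.05 (edgeR quasi-likelihood F-test). The part of these shifts in cell markers in the changes of the 10 genes was not tested.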

How the data were processed

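Soleus RNA of 4 control and 4 Dnm2 +/K562E mice was analysed, grouped by the sample labels. The authors trimmed reads with Trimmomatic 0.33, aligned them to GRCm38.p5 with STAR 2.5.1b, counted them per Ensembl gene with featureCounts and deposited these raw counts without normalization. Reads that overlapped more than one gene entered the count of each of them, multi-mapping reads only at the primary alignment, and whether the strand was used is not given in the sources used here. The labels name a stranded total RNA kit and the paper's methods a poly A-enriched library.

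Of 22880 identifiers, 22647 matched GENCODE M21 (same build), which gave symbols, positions and exon lengths. In R 4.3.3, edgeR 4.0.16 kept 14001 genes (filterByExpr, minimum count 10, minimum total 15), scaled them by TMM and tested them by the quasi-likelihood F-test, without covariates. Standard errors are the fold change divided by the square root of F. The study used the exact test of edgeR, kept here as an alternative beside DESeq2 1.42.0, other scalings and filters, replicate blocks and leaving out each mouse. Log2 ratios used a prior count of 2. The samples are separate mice by the study's design, and no pair of a genotype had counts close enough to be 1 library deposited again (chi-square over degrees of freedom at least 13.0).

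The 10 genes and all lists were chosen with earlier results of these data known. Named were every member, Dnm2, up to 3 called genes per list and direction with the smallest p, the ends of ranges and the 3 nearest profiles of Eln, Fbn1 and Ltbp2. Other named list genes, such as Fbln5, Efemp2, Tgfb1 and Ly6a, were picked after their values were seen. Ctsv had no matching symbol, and Elane was too low to be tested. Protein sequences were not used here.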

Additional observations from a re-analysis of the deposited data

Results flagged for a closer look

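In 94 groups of 4 mice, formed by the normalized CPM of the named genes and the 5 ratios, the highest or lowest mouse was compared with the rest of its group (its gap to the nearest mouse over the range, against Dixon's critical value), and 10 stood apart. By chance about 1 group in 20 does. None of these was one of the 10 member genes or their ratios. Control 1 was low for Abtb2 (15.5 CPM, others 30.6 to 32.2) and Rp1 (5.27 CPM, others 12.3 to 13.4), which are 2 of the 3 genes chosen for their likeness to Eln. Control 4 was high for Bmp1 (49.3 CPM), Fn1 (633.6 CPM) and Tgfbi (53.0 CPM). Dnm2 +/K562E mouse 1 was high for Adamtsl3 (29.5 CPM), Emilin1 (52.3 CPM) and Fn1 (1697 CPM), and mouse 4 was low for Loxl4 (7.40 CPM, others 10.3 to 10.7). Control 3 was low for Dnm2 (59.2 CPM, others 68.5 to 68.8).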

How the results depend on the processing

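The 7 members called higher stayed 7 with the exact test of edgeR, DESeq2, median-ratio factors, both other filters, either replicate block and without any single mouse, and became 9 with library size alone or with no fold threshold. Leaving out single mice gave 0 to 1 members called lower, the 1 being Eln without control 1, and log2 fold changes of Eln from -0.58 to -0.24. Library size alone gave 2865 higher and 564 lower genes in all, and no fold threshold 3103 higher and 3036 lower, with 4 lower genes in the lists.

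Same-numbered mice are different animals, whose deviations correlated at -0.11 by title and -0.03 by description numbers on average, and 0 and 2 of the 8 mice correlated best with their own number. The block by title numbers gave Eln -0.32 (adjusted p = 0.353, edgeR) and moved no member across a threshold. With 4 pairs the exact permutation test cannot go below 0.125, so the ratio differences did not pass under that pairing (Eln to Fbn1 -1.10, Ltbp2 to Ltbp4 1.27 and Ltbp1 to Ltbp3 -0.65, adjusted exact p = 0.156 each). Leaving out single mice gave -1.29 to -0.94 for Eln to Fbn1, 1.04 to 1.43 for Ltbp2 to Ltbp4 and -0.69 to -0.59 for Ltbp1 to Ltbp3. Other prior counts changed no ratio call. With library size alone 8 genes of the assembly list and 7 genes that anchor or activate TGF-beta were called higher. Depth limits the scarce genes most, such as Fbn2 with 121 to 552 counts per mouse.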
